A study of Homo sapiens with 16 samples.

Results

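AHNAK, DYNC1H1, CENPF and TFRC are 4 human genes chosen by name, and their peaks were counted in 8 lists of peaks from an RNA immunoprecipitation of PABPC1, the major poly(A)-binding protein of the cytoplasm. A peak is a stretch of the genome where the authors' peak caller found enriched reads. It was given to a gene when it overlapped the gene's span in the genome build hg19, on the gene's strand, by at least 1 base. Only 6 of the 175749 peaks of the 8 lists (0.00341%) lay in the 4 spans. AHNAK had 3 of them and TFRC had 3, in 3 lists each, while DYNC1H1 and CENPF had none in any list. No list held more than 1 peak in a gene, and no list held a peak on the opposite strand of any of the 4 spans.

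The lists come from H1299, a lung carcinoma cell line of human origin, whose cells stably expressed Myc-tagged PABPC1 and were immunoprecipitated with an anti-Myc antibody. The series has 16 samples, of wild-type (WT) PABPC1 or of PABPC1 carrying K512R (lysine changed to arginine), each with or without 500 µM sodium arsenite (AS), and each as immunoprecipitate (IP) or input RNA. The sources used here do not say whether the lines were single clones or how much endogenous PABPC1 remained. The 8 lists belong to 4 pairs of replicates, and for 6 lists the sample record and the list's name disagree on the condition. By the record, pair A holds IP of AS-treated WT cells, while its lists are named K512R. By the record, pair B holds input of AS-treated WT cells, while its lists are named K512R-AS. Pair C holds IP of untreated WT cells, and its lists are named WT. Pair D holds input of untreated WT cells by the record, while its lists are named WT-AS. Grouping follows the record, the reading by list names is given beside it, and which is right was not settled. The other 8 samples, all recorded as K512R, had no list of their own in the sources used here. The lists held 24183 and 25111 peaks in A, 19953 and 20971 in B, 21979 and 22083 in C, and 20309 and 21160 in D. Read depth is unknown, so a gene without a listed peak is a gene for which none was listed, not one whose mRNA was absent or unbound. No source says that replicates were separate cultures, and their spread could be technical.

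Poly(A)-binding protein coats the poly(A) tail of mRNAs, where it supports translation and guards the tail. Oxidative stress from arsenite halts translation initiation, and the stalled mRNAs gather with RNA-binding proteins in stress granules. Messages with long coding and untranslated regions are known to gather there more than short ones. AHNAK encodes a giant scaffold protein built largely of repeats. DYNC1H1 encodes the heavy chain of cytoplasmic dynein, the motor that carries cargo toward microtubule minus ends. CENPF encodes a large kinetochore protein that is made mainly in dividing cells. TFRC encodes the transferrin receptor, which takes up iron, and its mRNA is stabilised when iron is low through iron-responsive elements in its 3' untranslated region.

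The spans ranged from 32.9 to 113 kb. AHNAK lies on the minus strand of chromosome 11 at 62201013 to 62314332 (113320 bp), and TFRC on the minus strand of chromosome 3 at 195776155 to 195809032 (32878 bp). DYNC1H1 spans 102430865 to 102517135 of chromosome 14 (plus strand, 86271 bp), and CENPF 214776532 to 214837914 of chromosome 1 (plus strand, 61383 bp). The lists give no mRNA length, and neither mRNA length nor entry into granules was measured here. In the RefSeq annotation of GRCh38.p14, 85.5% of 20052 protein-coding genes were no longer than AHNAK, introns included, 81.95% no longer than DYNC1H1 and 73.7% no longer than CENPF. These ranks used GRCh38 lengths, and that of DYNC1H1 was 91871 bp, longer than its hg19 span of 86271 bp. For TFRC the share was 58.1%, so by genomic length TFRC was not among the very long genes. An annotation of hg19 was not used here, so peaks were not placed in exons or untranslated regions, and the sequence under them is not shown.

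The AHNAK peak was listed in A1, A2 and C2 and in none of B1, B2, C1, D1 and D2. It was the same stretch in all 3 lists, chromosome 11 at 62314132 to 62314332, and was 201 bp wide. Its first base was the first base of the span, and its last was base 201 from the 5' end, so it covered 0.177% of the span. The other 113119 bases, out to the 3' end, held no listed peak. Its score, the authors' own value per peak with no stated unit, was 44.99 in A1, 39.56 in A2 and 35.05 in C2. Ranked within each list, these scores stood at percentile 26.8 in A1, 23.5 in A2 and 20.04 in C2, all in the lower part of their lists. By width the peak was ordinary, at percentile 51.2 to 52.6 of the lists that held it.

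The TFRC peak was listed in A1, A2 and D2 and in none of B1, B2, C1, C2 and D1. It lay on chromosome 3 at 195808702 to 195808961 in A1 and A2 (260 bp) and at 195808717 to 195808961 in D2 (245 bp). In all 3 lists it began at base 72 from the 5' end of the span. It ended at base 331 in A1 and A2 and at base 316 in D2, so the edge toward the 3' end was 15 bp shorter in D2. Like the AHNAK peak it thus lay at the very start of its gene, within the first 1.01% of the span, and 32547 bases on its 3' side held no listed peak in A1 and A2. The span's far end, which on the minus strand holds the 3' end of the gene, had no listed peak in any list. The scores were 25.65 in A1, 124.38 in A2 and 30.17 in D2, at percentiles 14.5, 46.98 and 18.3. The replicates of pair A thus held the same stretch at unlike ranks, and D2 ranked between them.

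**Figure D1:**
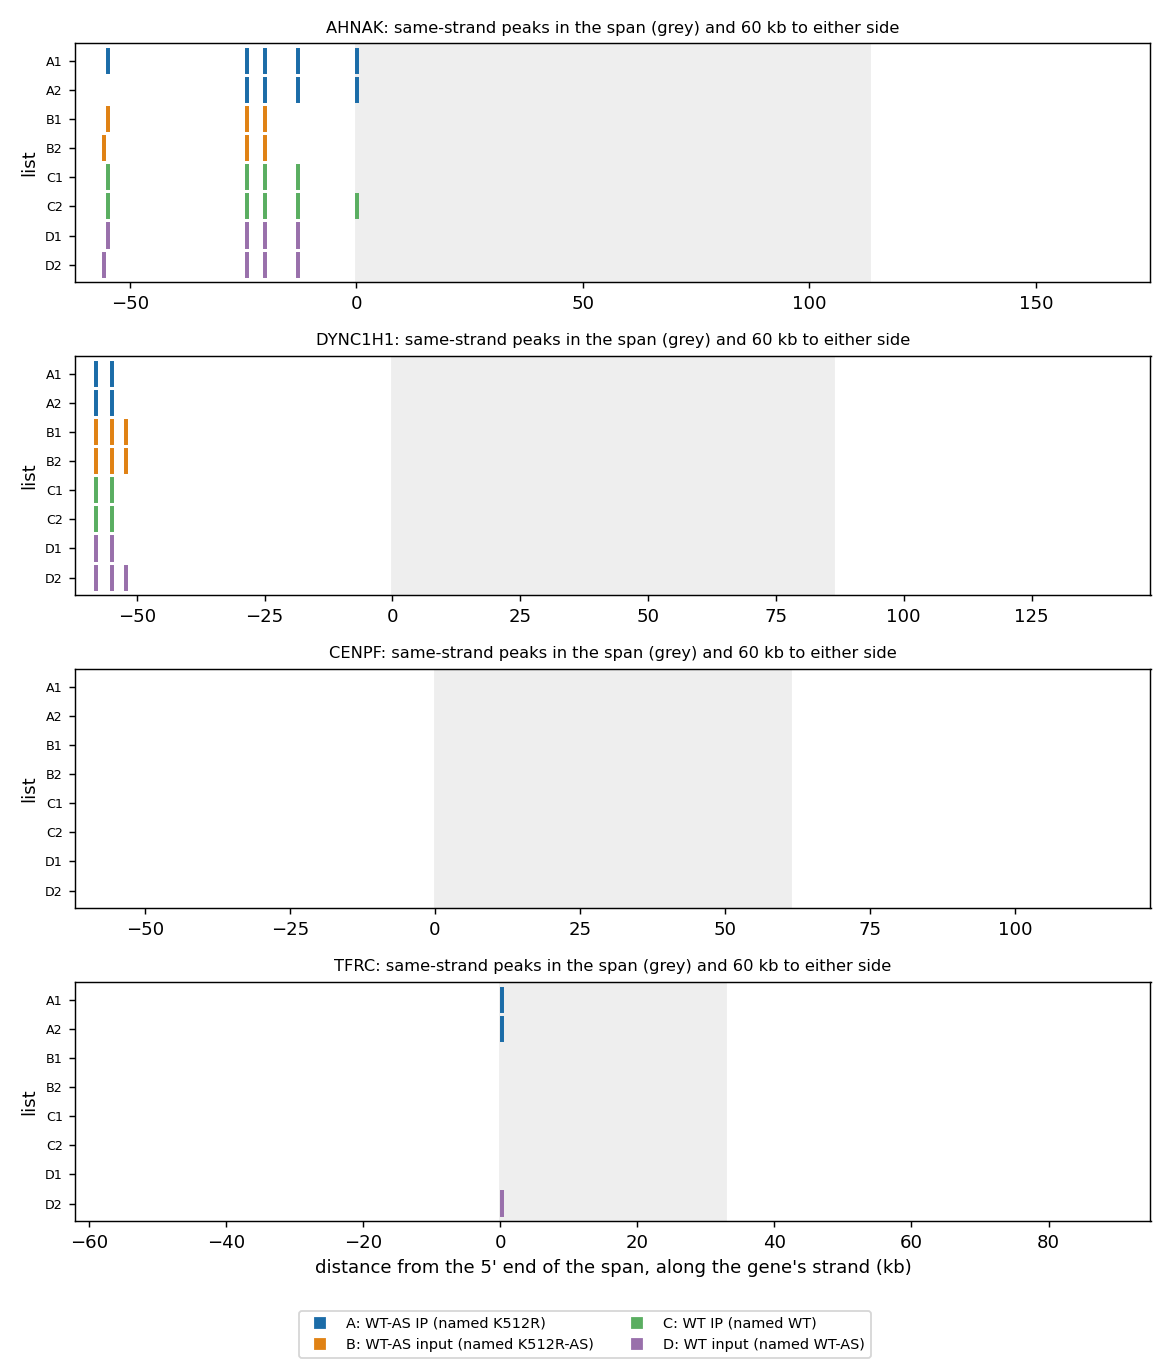
Same-strand peaks of the 8 lists in the span of each gene (grey) and within 60 kb of it, by distance from the 5' end of the span in kb. Each row is a list, tick marks stand at peak centres and are not drawn to width, and colours give the 4 pairs. Inside the spans only AHNAK (A1, A2, C2) and TFRC (A1, A2, D2) have a mark, both at the 5' end, while peaks stand upstream of AHNAK and DYNC1H1 in every list.

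**Figure D2:**
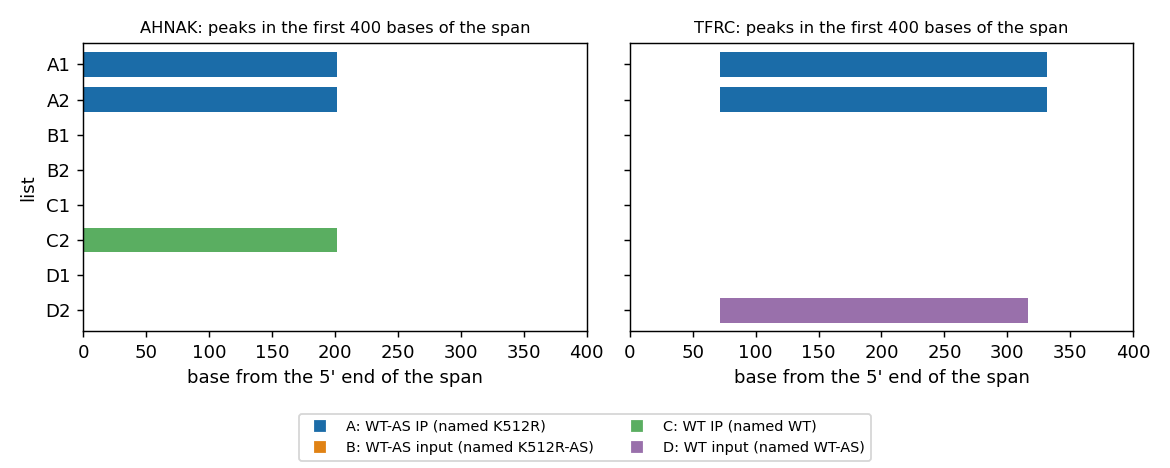
Peaks in the first 400 bases of the AHNAK and TFRC spans, drawn to scale by base from the 5' end. Each row is a list and colours give the pairs. The AHNAK peak runs over bases 1 to 201 in A1, A2 and C2, and the TFRC peak over bases 72 to 331 in A1 and A2 and 72 to 316 in D2.

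DYNC1H1 and CENPF held no listed peak in A1, A2, B1, B2, C1, C2, D1 or D2, on either strand. The peak names carry a number that follows the position along each chromosome in every list, and each list holds only 49.7% to 52.1% as many peaks as its highest number. The numbers skipped between the listed peaks on either side of a span therefore limit how many numbered peaks could lie in it unlisted. For DYNC1H1 the skipped numbers were 3 and 2 in A, 2 and 1 in B, 4 and 3 in C, and 1 and 1 in D, over a stretch of 189 to 192 kb that includes the span. For CENPF they were 4 and 0 in A, 1 and 2 in B, 2 and 3 in C, and 1 and 0 in D, over 1016 to 1230 kb. In A2 and D2 no number was skipped around CENPF, so in those lists the numbering leaves no room for an unlisted peak there. For AHNAK 2 to 6 numbers were skipped over 411 to 599 kb, and for TFRC 5 to 19 over 309 to 654 kb. The lists do not show how many of the skipped numbers fell inside a span or what they stood for.

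**Figure D3:**
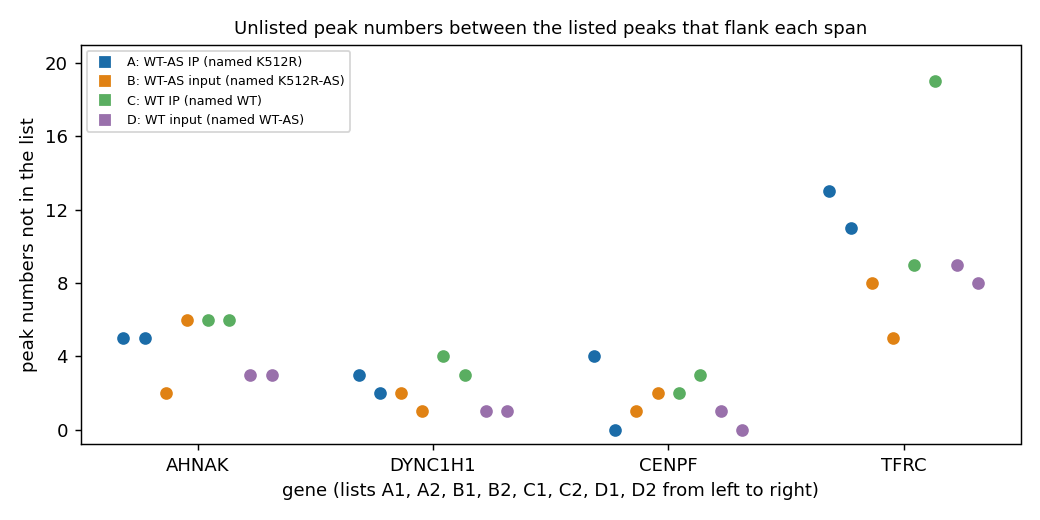
Peak numbers missing from each list between the listed peaks that flank a gene's span, on either strand. Each point is a list, in the order A1, A2, B1, B2, C1, C2, D1, D2 from left to right, and colours give the pairs. CENPF is at 0 in A2 and D2, DYNC1H1 stays at 4 or below, and TFRC reaches 19 in C2.

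Same-strand windows as long as each gene, laid end to end along every chromosome, give the general density of peaks. Of windows as long as AHNAK, 19.3% held the centre of a peak of at least 1 list, and of windows as long as DYNC1H1 16.3% did. The shares were 13.4% for the length of CENPF and 9.02% for that of TFRC. These windows include stretches without genes, so they are no estimate of what a transcribed gene of that length holds.

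The stretches beside AHNAK and DYNC1H1 were not empty. Within 100 kb upstream of AHNAK lay 9 regions, a region being peaks of the 8 lists joined where they overlap on a strand, and 3 of these had a peak in all 8 lists. Within 100 kb upstream of DYNC1H1 lay 7 regions, 5 of them in all 8 lists. Downstream of both genes, and on either side of CENPF and TFRC, no region lay within 100 kb on the gene's strand. The listed peak nearest to the start of AHNAK on its strand lay 12740 bp upstream in A1, A2, C1, C2, D1 and D2. Its score was 3100 in A1 and A2, 2662 in C1 and 3100 in C2, against 27.98 in D1 and 26.95 in D2, and it was not listed in B1 or B2. In B1 and B2 the nearest peak lay 19945 bp upstream, with a score of 3100 in both. Different peaks shared a score of exactly 3100 in every list, so equal values of 3100 do not rank these peaks. High-scoring peaks thus lay close to AHNAK in every list, while the peak in AHNAK never scored above 44.99. In RefSeq GRCh38.p14 the protein-coding gene next to AHNAK on that side is EEF1G, a translation elongation factor subunit, and no peak was assigned to it here. The peaks nearest to CENPF on its strand were 266 kb upstream and 903 kb downstream in all 8 lists.

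**Figure D4:**
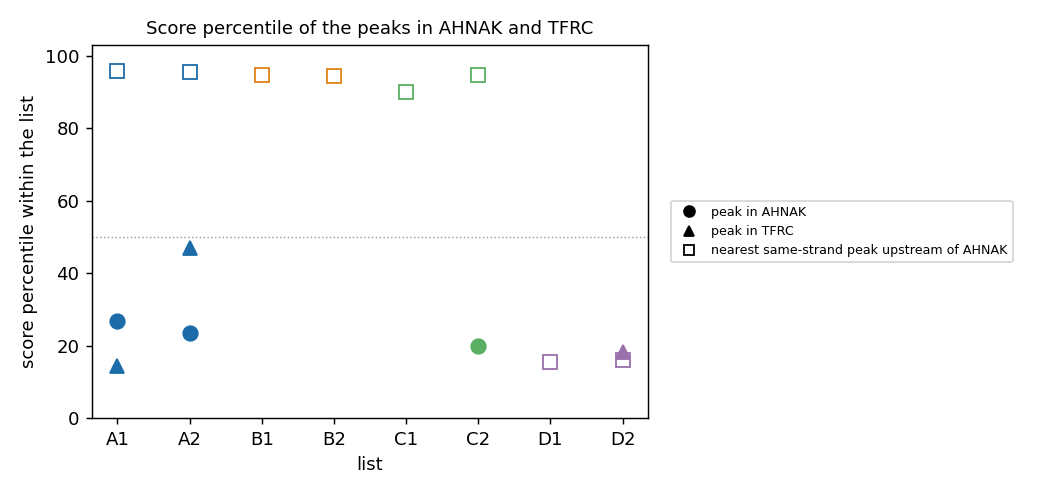
Score percentile within each list of the peaks in AHNAK (circles) and TFRC (triangles), and of the nearest same-strand peak upstream of AHNAK (open squares), by list. A percentile of 50 is the middle of a list (dotted line). All 6 peaks in the 2 genes stand below it, between 14.5 and 46.98. The nearest peak upstream of AHNAK stands at 89.9 or above in A1, A2, B1, B2, C1 and C2 and near 16 in D1 and D2. In B1 and B2 it is another peak, 19945 bp upstream instead of 12740 bp. D1 and D2 also hold that farther peak, with a score of 3100, so the squares of B and D do not show the same peak.

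Pair A was set against pair B, by the record IP against input of WT cells with AS, and by list names K512R cells without against with AS. AHNAK had 1 peak in each list of A (201 bp covered in A1 and A2) and none in B1 and B2. TFRC had 1 peak in each list of A (260 bp covered in both) and none in B1 and B2. Both regions were thus in 2 of 2 lists of A and 0 of 2 of B, which held for 16% of the 33176 regions with a peak in at least 1 of these lists, and the reverse for 6.94%. Among the 20905 regions in both lists of A, 25.3% were absent from B, and in the tertile of them with the lowest scores 44.6% were. AHNAK and TFRC lay in that tertile, with mean score percentiles of 25.2 and 30.7. Absence from B was thus common among regions scored this low. With every list limited to its 19953 best-scoring peaks, the TFRC peak of A1 (score 25.65, against a lowest kept score of 29.18) fell out, and AHNAK was the 1 region left in A and not B. Exact tests of 2 lists against 2 have 3 splits and cannot reach 0.05, so no p is given for single pairs.

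Pair C was set against pair D, by the record IP against input of untreated WT cells, and by list names WT cells without against with AS. The AHNAK peak covered 0 bp in C1 and 201 bp in C2, against 0 bp in D1 and D2. The TFRC peak covered 0 bp in C1 and C2, against 0 bp in D1 and 245 bp in D2. Each peak was in 1 list of its pair only, and the replicates of the pair disagreed. Neither region was in 2 of 2 lists of one pair and 0 of 2 of the other, a state that 11.4% of 31216 regions met in C and not D and 9.68% in D and not C.

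Pair A was set against pair C, by the record AS against no treatment in the IP of WT cells, and by list names K512R against WT without AS. TFRC was in A1 and A2 and absent from C1 and C2, as were 5.88% of 31112 regions, and 1.92% had the reverse. With lists limited to 19953 peaks this call ended, since the peak of A1 fell out, and 0 regions of these genes were in A and not C. AHNAK was in both lists of A and in C2, so it did not meet the rule. Of the regions in both lists of A, 8.75% were absent from C, and 22.4% of the tertile with the lowest scores. Pair B against pair D, by the record AS against no treatment in input and by list names K512R against WT with AS, had no listed peak in either gene in B1, B2 and D1, and only the TFRC peak in D2. Regions in both lists of B and neither of D made up 3.95% of 27622, and the reverse 5.02%, and neither gene was among them. A against B and A against C share the lists of A, so the TFRC region's 2 changes are not separate observations.

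Over all 8 lists, AHNAK was covered by 150.75 ± 100.5 bp in the IP lists (A and C) and by 0 bp in the 4 input lists (B and D), with SD and n = 4 each. By list names these are the lists without and with AS. The difference of 150.75 bp, present in 3 of 4 lists, had p = 0.143 in an exact 2-sided permutation test over lists, and adjusted p = 0.482 (Benjamini-Hochberg). The adjustment ran over 17418 loci, a locus being same-strand peaks chained across gaps of up to 10 kb, with the gene spans in place of the loci they overlap. TFRC was covered by 130 ± 150 bp in the IP lists and 61.25 ± 122.5 bp in the input lists (SD, n = 4 each, exact permutation p = 0.429, adjusted p = 0.884). The lists of A and B were then set against those of C and D, by the record AS against no treatment and by list names K512R against WT. AHNAK was covered by 100.5 ± 116 bp in A and B and 50.25 ± 100.5 bp in C and D (SD, n = 4 each, exact permutation p = 1, adjusted p = 1). TFRC was covered by 130 ± 150 bp in A and B and 61.25 ± 122.5 bp in C and D (SD, n = 4 each, exact permutation p = 0.429, adjusted p = 1). Without 1 list the AS minus untreated difference of AHNAK ran from 16.75 bp (without A1 or A2) to 100.5 bp (without C2), and that of TFRC from 25.4 bp to 130 bp (without D2). None of these differences passed the test. With a peak in only 3 of the 8 lists, AHNAK and TFRC could not reach an exact permutation p under 0.143, whatever the grouping. For any locus, 70 splits give no p under 0.0286. The smallest adjusted p of any locus was 0.185 between IP and input and 1 between AS and untreated. That 0% of loci had an adjusted p under 0.05 therefore says nothing about the size of the differences. An unadjusted p under 0.05 was found for 2685 loci (15.4%) between IP and input lists and for 119 (0.683%) between AS and untreated lists. Were the lists interchangeable, a share of at most 0.0286 of loci would be expected there. The share between IP and input lists was above this, and that between AS and untreated lists below it. The same tests on the number of peaks gave adjusted p = 0.569 for AHNAK and 1 for TFRC between IP and input (exact permutation, n = 4 each), and 1 for both between AS and untreated. Of all loci, 12.8% and 0.258% had an unadjusted p under 0.05 in those tests of peak number. DYNC1H1 and CENPF, with 0 bp in every list, gave no test.

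The pattern of AHNAK, present in A1, A2 and C2 alone, was that of 533 of the 36802 regions of the series, and that of TFRC, in A1, A2 and D2 alone, of 69. Regions in exactly 3 lists made up 9.005% of all regions, and those in all 8 lists 29.5%. The 2 regions in these genes were thus neither among the regions shared by every list nor alone in their pattern.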

How the data were processed

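Per the submitters' processing notes, the build was hg19, HISAT2 2.0.4 was an aligner used and cutadapt 1.9.3 a trimmer. The authors' data used here held a list of peaks for 8 of the 16 samples, with start, end, strand and a score. The score's unit and threshold, the caller's version and the control library were not given in the sources used here. The deposited score served to rank peaks within their own list. Peak names begin with MACS. Coordinates are hg19 and counted from 1.

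Gene spans were set by name with strand and hg19 ends, and peaks were clipped to them. The genes and the measures were chosen with earlier results of these data known. All 4 genes are named and no others were searched for. Covered bases and peak counts per locus were compared by exact permutation over lists, 4 against 4 (70 splits, smallest p 0.0286), with Benjamini-Hochberg adjustment over 17418 loci. The permutation script was tested on simulated data. Alternatives were a stricter score, lists of equal length, peaks wholly inside the span, both strands, lists left out, a replicate block and other rules for regions, and, chosen after the lists were seen, spans widened by 10 kb. With no counts, precision rests on the number of lists. Python 3.11.15, numpy 2.4.6 and pandas 2.3.3 were used.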

Additional observations from a re-analysis of the deposited data

Results flagged for a closer look

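In sets of 4 lists, the gap of a list to the nearest other list was divided by the range of the set. A list stood apart when this ratio exceeded Dixon's critical value, which chance gives in about 1 of 20 sets. With a peak either listed or not, any single list that differs from the other 3 meets this. AHNAK was covered by 0 bp in C1, against 201 bp in the other IP lists (A1, A2 and C2). Among the untreated lists AHNAK was covered by 201 bp in C2 and 0 bp in C1, D1 and D2. TFRC was covered by 245 bp in D2, against 0 bp in the other input lists (B1, B2 and D1) and in the other untreated lists (C1, C2 and D1).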

How the results depend on the processing

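Of 88 recomputed counts of changed regions, 6 moved. The other 108 recomputed values were differences with a permutation test, of which 0 reversed. Their side of the threshold shows nothing about stability. In the main tests neither gene could reach a permutation p under 0.143, so no adjusted p of these genes could pass it. With every list limited to its 19953 best-scoring peaks, the TFRC peak of A1 fell out, so 1 region was in A and not B, 0 regions were in A and not C, and the TFRC differences became 3.75 bp and 0 peaks for both factors. Leaving out 1 list moved the counts of changed regions by construction. They ranged over 0 to 1 for C and not D (1 without C1), 1 to 2 for A and not C (2 without C2), 0 to 1 for D and not C and 0 to 1 for D and not B (both 1 without D1). The IP minus input difference of AHNAK ranged over 134 to 201 bp without 1 list, and its adjusted p over 0.188 to 0.550 in all 13 settings. Without C1, the only IP list that lacked the peak, its exact permutation p was 0.0286 (adjusted p = 0.188). Without any other single list it was 0.143. Leaving out C1 removes the only disagreement among the IP lists by construction. For TFRC the difference ranged over 25.4 to 130 bp without 1 list, 130 bp being the value without D2. With a score of at least 100, no AHNAK peak was left, so that setting gave no value for it, and TFRC kept its peak in A2 alone. With the replicate number as a block, the IP minus input difference of AHNAK was 150.75 bp (exact permutation p = 0.167, adjusted p = 0.550) and that of TFRC 68.75 bp (p = 0.5, adjusted p = 0.975). The block leaves 36 splits and a smallest p of 0.0556, so no call could be made under it. The labels do not say that the numbers pair the lists, and replicate differences correlated by 0.00102 to 0.0264 between pairs over 17418 loci. Spans widened by 10 kb, peaks wholly inside the span and both strands gave the same peaks. Depth is unknown, so a peak missing from a list may lie below the authors' threshold.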
